A study of Mus musculus with 19 samples.

Results

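Mitochondrial protein import was followed through 33 genes of its machinery in mouse thymocytes with and without Rptor, which encodes Raptor, a subunit of the kinase complex mTORC1. The 33 were taken from 22180 genes measured singly on the arrays. They comprise 15 genes whose symbol is Timm with a number, 8 whose symbol is Tomm with a number, and 10 partners chosen by name (Pam16, Dnlz, Grpel1, Grpel2, Hspa9, Pmpca, Pmpcb, Samm50, Chchd4 and Gfer). Each gene was read by 1 probe set, a group of array probes summarised into 1 log2 expression value. Where a gene had several, the probe set with the highest mean over all arrays was used, which applied to Timm10b and Timm8a1. Tomm5 and Tomm6 lay only on probe sets shared with other genes and were not members.

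Sorted thymocytes of C57BL/6 mice were measured on 19 arrays. The wild-type (WT) groups held 4 arrays of immature single-positive (ISP) cells, 3 of DN3a thymocytes and 3 of γδ T cells, and the Rptor-/- groups held 3 arrays of each population. The Rptor-/- mice were a cross of a CD2-cre line, which expresses Cre recombinase in lymphocytes, with a Raptorfl/fl line that carries the loxP-flanked gene. ISP cells were gated as CD4-CD8+TCRβ-, DN3a cells as CD25hi and negative for CD4, CD8, both T cell receptors, CD44 and CD28, and γδ T cells by the absence of CD4, CD8, TCRβ, NK1.1 and Gr1. The labels do not say whether the WT animals carried Cre, how old the mice were, or whether the arrays of a group came from separate animals, so the p-values measure the spread between these arrays, which may be technical. The samples are bulk RNA, in which fewer cells of a type and less RNA per cell cannot be told apart.

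Nearly all mitochondrial proteins are made in the cytosol and enter the organelle through the TOM complex of the outer membrane. Proteins with a cleavable presequence pass on through the TIM23 channel, pulled by an Hsp70 motor in the matrix, while metabolite carriers are handed by small TIM chaperones to the TIM22 translocase and small cysteine-rich proteins are trapped by the Chchd4 and Gfer disulfide relay. mTORC1 is known to promote the making of mitochondrial proteins, and thymocytes grow and divide rapidly as they pass from the DN3 stage to the ISP stage.

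Promoters are shown for 4 members, each as the 250 bases before the annotated start, 5′ to 3′ on the strand of the gene, from RefSeq on build GRCm38.p6. Tomm40 (chr7:19715430-19715679, minus strand) and Grpel1 (chr5:36464935-36465184, plus strand) are the members with the largest falls in Rptor-/- ISP cells. Timm9 (chr12:71136676-71136925, minus strand) and Tomm70a (chr16:57121464-57121713, plus strand) were chosen after their values were seen, as members lower both in Rptor-/- ISP cells and in WT γδ T cells, to show 1 example of each of the more frequent motifs. Capitals mark CACGTG in Timm9 and CCGGAAGT in Tomm70a.
Tomm40: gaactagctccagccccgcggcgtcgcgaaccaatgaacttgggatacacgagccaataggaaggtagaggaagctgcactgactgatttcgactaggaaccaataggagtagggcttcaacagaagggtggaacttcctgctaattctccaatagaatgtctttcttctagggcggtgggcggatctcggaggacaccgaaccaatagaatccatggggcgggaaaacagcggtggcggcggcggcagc
Grpel1: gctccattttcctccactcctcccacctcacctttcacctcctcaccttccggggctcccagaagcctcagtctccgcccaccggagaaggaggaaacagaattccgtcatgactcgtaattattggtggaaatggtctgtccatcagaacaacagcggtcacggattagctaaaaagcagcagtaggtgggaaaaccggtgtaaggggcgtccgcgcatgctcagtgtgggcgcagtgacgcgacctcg
Timm9: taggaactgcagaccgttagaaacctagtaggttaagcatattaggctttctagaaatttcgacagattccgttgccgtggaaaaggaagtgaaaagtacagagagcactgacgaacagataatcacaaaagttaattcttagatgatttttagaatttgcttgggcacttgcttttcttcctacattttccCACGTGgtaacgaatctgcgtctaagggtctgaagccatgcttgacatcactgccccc
Tomm70a: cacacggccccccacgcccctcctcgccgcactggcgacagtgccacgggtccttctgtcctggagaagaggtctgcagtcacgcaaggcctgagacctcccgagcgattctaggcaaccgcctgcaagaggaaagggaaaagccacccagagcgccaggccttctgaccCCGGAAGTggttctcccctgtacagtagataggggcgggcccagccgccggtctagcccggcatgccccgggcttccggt

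In all, 28 of the 33 members matched a RefSeq promoter, taken from 250 bases before the start to 50 bases after it, and both strands were searched. A member was counted once if any of its promoters held the motif, while the share of all promoters counts each promoter singly. The shares are thus in unlike units, and a gene with several promoters has more chances of a match. The E-box CACGTG, which MYC and related factors bind, occurred in 5 of 28 members (17.9%: Timm10, Timm8a1, Timm9, Tomm20 and Tomm20l) and in 7.15% of all 32851 promoters. With the start base as position 0, Timm9 held it at positions -58 to -53 and again across the start at -1 to 4, the latter reaching past the printed stretch. The ETS-type motif CCGGAAGT occurred in 7 of 28 (25.0%: Pmpcb, Timm10, Timm10b, Timm23, Timm29, Timm8a2 and Tomm70a) and in 3.89% of all promoters, and in Tomm70a it lay at -80 to -73. The NRF1 core GCGCATGCG was in 1 of 28, Timm13 at -193 to -185, against 1.75% of all promoters, and the YY1 core AAGATGGCG was in 1 of 28, Timm50 at 11 to 19, against 1.40%. These cores were shortened after longer forms of 10 and 11 letters had been searched, which matched 0 and 1 of 28 against 0.971% and 0.633%. None of these 4 motifs was in the Tomm40 or Grpel1 window. Among the 15 matched members that fell in ISP cells, 3 held the E-box and 3 the ETS motif. These matches describe letters in a window and no binding was measured.

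The arrays fell into 2 sets by their overall level. The median log2 value of an array lay between 3.80 and 3.88 for the 7 of ISP cells but between 6.03 and 6.13 for the other 12, and levels are therefore compared only within a set. Rptor was lower in Rptor-/- cells of every population, at -0.24 in ISP (SE 0.08, limma adjusted p = 0.0384), -0.58 in DN3a (SE 0.08, adjusted p = 5.98e-04) and -0.30 in γδ T cells (SE 0.08, adjusted p = 0.0489). In ISP cells the groups touched at 6.34, and the exact two-sided permutation p was 0.114, where 0.0571 is the smallest that 3 against 4 arrays allow. In the other populations it was 0.1, the smallest that 3 against 3 allow. The ISP call was lost without Rptor-/- replicate 1 or 2 or WT replicate 1, 2 or 4, and the γδ call without any 1 of its 6 arrays, while the difference stayed below 0. Where the probe set of Rptor lies relative to the deleted part was not examined. How complete the deletion was in each population was not tested. Of the genes that mark the populations, Cd8a was at 11.33 ± 0.12 (SD, n = 4) in WT ISP cells and Il2ra, the gene of CD25, at 12.58 ± 0.06 (SD, n = 3) in WT DN3a cells. Sox13, a γδ-lineage factor, was at 10.75 ± 0.27 (SD, n = 3) in WT γδ T cells, whose receptor constant genes were not measured singly. Other markers did not all follow the gates. Cd8b1 was at 8.81 ± 0.05 in WT and 7.09 ± 0.61 in Rptor-/- γδ T cells (SD, n = 3 each), which were gated CD8-negative and had Cd8a below the array median on at least 1 array, and Cd4 was above the array median on every ISP array (6.37 ± 0.69, n = 4, in WT). Of markers of other cells on WT ISP arrays, 9 of 9 myeloid, 5 of 7 dendritic, 4 of 6 B cell and 2 of 7 thymic stroma genes were below the array median throughout. The stroma genes Epcam, Krt8, Aire and Col1a1, the B cell gene Cd79b and the dendritic genes Irf8 and Siglech were above it on every WT ISP array. Lyz2, a myeloid gene, was above the median on every DN3a array, at 7.99 ± 0.40 in Rptor-/- and 6.95 ± 0.28 in WT (SD, n = 3 each). In each of these DN3a groups 8 of the 9 myeloid genes were below the array median throughout. The part of these signals in the results was not tested.

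The first question was whether the import genes differed between genotypes in ISP cells, the rapidly cycling CD8+ step between double-negative and double-positive thymocytes. They did so widely. Of the 33 members 17 fell and 1 rose (limma, adjusted p under 0.05 over all genes), where 12.4% of all genes were called, 6.57% lower and 5.87% higher. The median difference, Rptor-/- minus WT, was -0.30 on the log2 scale, against -0.0039 over all genes tested, and 30 of 33 members were below 0. The groups did not overlap for 21 members, 20 of them lower, where 16.7% of all genes had groups apart and 8.95% were apart and lower. The 3 Rptor-/- arrays stood together, with the median member 0.245, 0.279 and 0.287 below the WT mean, while the 4 WT arrays lay between -0.046 and 0.052. Fitted on the 7 ISP arrays alone, which gives fewer arrays to estimate the spread, 10 members fell and 1 rose, where 5.92% of all genes were called.

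**Figure D1:**
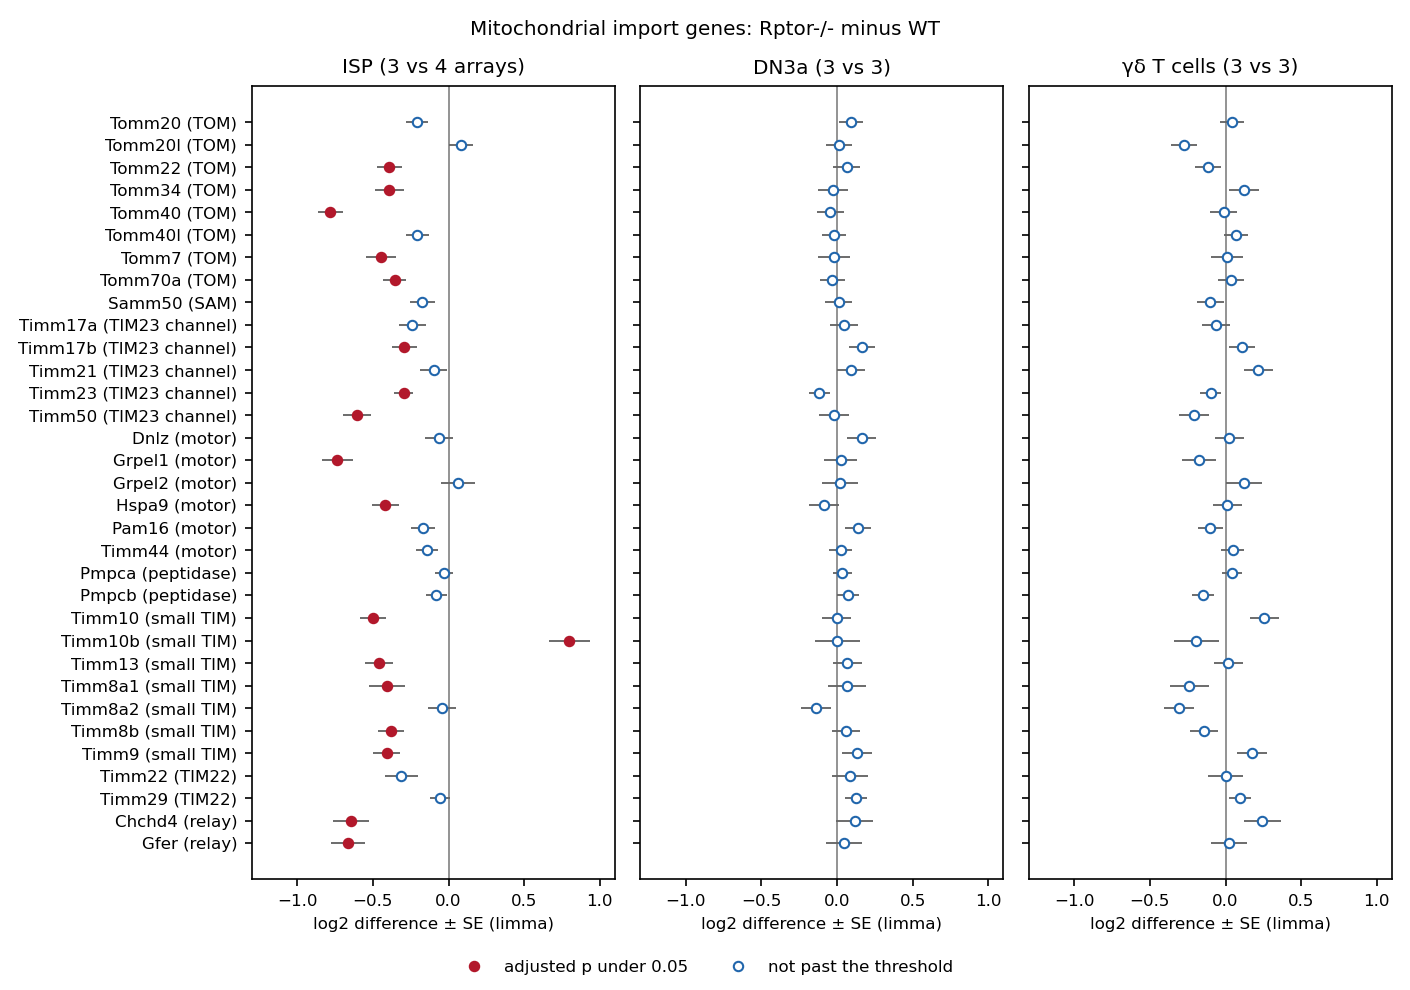
Log2 difference, Rptor-/- minus WT, of each of the 33 import genes in ISP, DN3a and γδ T cells (x axis; points with limma's SE; filled points passed an adjusted p of 0.05 and open points did not; the role of each gene is in brackets). In ISP cells 17 genes fell and Timm10b rose, while in DN3a and γδ T cells every point is open and lies between -0.31 and 0.26.

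Of the 8 members with a Tomm symbol, most of them TOM subunits, 5 fell in ISP cells. Tomm40, the pore of the complex, read 6.87, 6.95 and 6.74 on the Rptor-/- arrays and 7.59, 7.79, 7.68 and 7.46 on the WT arrays. Every Rptor-/- array was below every WT array, by at least 0.52. The fall of 0.78 (SE 0.08, limma adjusted p = 3.72e-06) left the linear signal at 58.2% of WT, the largest fall among the 33. Tomm22, the central receptor that holds the pore complexes together, read 8.73, 8.57 and 8.70 against 9.12, 8.95, 9.13 and 9.03 in WT. Its groups were also apart, with a difference of -0.39 (SE 0.08, adjusted p = 0.00249). Tomm70a, the receptor for carrier precursors brought by cytosolic chaperones, was lower by a difference of -0.36 (SE 0.08, adjusted p = 0.00393; 8.14 ± 0.12, SD, n = 3, against 8.50 ± 0.12, n = 4). Tomm7, a small subunit that tunes the assembly of the complex, differed by -0.45 (SE 0.10, adjusted p = 0.00375). Tomm34, a cytosolic co-chaperone of precursors and no subunit of the complex, differed by -0.39 (SE 0.09, adjusted p = 0.00712), but its groups met at 7.14, and its adjusted p was 0.0558 without Rptor-/- replicate 1. Tomm20, the presequence receptor, was at -0.21 (adjusted p = 0.0744) with groups just apart, and Tomm40l, a paralogue of the pore, at -0.20 (adjusted p = 0.0873). Tomm20l, the one member below the median gene by signal, was at 0.08 (adjusted p = 0.689). Samm50, the core of the complex that inserts barrel proteins into the outer membrane, was at -0.17 (adjusted p = 0.223).

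Of the 5 TIM23 channel members 3 fell. Timm50, the receptor that takes presequence proteins from TOM to the channel, read 7.56, 7.54 and 7.42 in Rptor-/- and 8.05, 8.18, 8.27 and 7.96 in WT ISP cells. The groups were 0.40 apart at their nearest, and the fall of 0.61 (SE 0.09, limma adjusted p = 1.4e-04) brought the signal to 65.7% of WT. Timm23, the channel protein itself, differed by less, at -0.30 (SE 0.06, adjusted p = 0.00327), with a narrow spread of 8.98 ± 0.04 (SD, n = 3) against 9.28 ± 0.08 (n = 4). Its partner Timm17b differed by -0.29 (SE 0.08, adjusted p = 0.0201), a call lost without Rptor-/- replicate 1 (0.0642), Rptor-/- replicate 3 (0.135) or WT replicate 1 (0.0555). The paralogue Timm17a was at -0.24 (adjusted p = 0.0854), with groups apart, and Timm21, which bridges TOM and TIM23, at -0.10 (adjusted p = 0.638).

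The matrix motor split by subunit, with 2 of 6 members lower. Grpel1, the nucleotide exchange factor that resets the motor's Hsp70, read 7.89, 7.59 and 7.56 in Rptor-/- and 8.35, 8.38, 8.49 and 8.43 in WT. The lowest WT array was 0.46 above the highest Rptor-/- array, and the fall was 0.73 (SE 0.10, limma adjusted p = 5.24e-05), to 60.1% of WT. Hspa9, the Hsp70 that pulls precursors inward, read 9.94, 9.82 and 9.68 against 10.26, 10.35, 10.07 and 10.25, a difference of -0.42 (SE 0.09, adjusted p = 0.00316). The other 4 did not pass: Pam16, which regulates the motor, was at -0.17, Timm44, its anchor at the channel, at -0.14, Dnlz, which keeps Hspa9 soluble, at -0.06 and Grpel2, the paralogue of Grpel1, at 0.06. Their adjusted p ran from 0.222 to 0.868. Both subunits of the peptidase that cleaves presequences lay close to 0, with Pmpca at -0.03 (SE 0.06, adjusted p = 0.885) and Pmpcb at -0.08 (SE 0.07, adjusted p = 0.616).

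Among the 7 small TIM chaperones of the intermembrane space 5 fell and 1 rose. Timm10, which forms hexamers with Timm9, read 7.41, 7.62 and 7.36 in Rptor-/- and 8.05, 8.05, 7.89 and 7.85 in WT. All 3 Rptor-/- arrays were below all 4 WT arrays, with a difference of -0.50 (SE 0.09, limma adjusted p = 6.12e-04). Timm9 itself was tight in Rptor-/- cells at 6.64, 6.67 and 6.68 against 6.92, 6.99, 7.20 and 7.18, a difference of -0.41 (SE 0.09, adjusted p = 0.00408). Timm13, which pairs with the Timm8 proteins, read 8.09, 8.19 and 8.15 against 8.44, 8.75, 8.70 and 8.52, a difference of -0.46 (SE 0.09, adjusted p = 0.00142). Timm9, Timm10 and Timm13 were thus each lower on every Rptor-/- array than on any WT array. Timm8b differed by -0.38 (SE 0.09, adjusted p = 0.00521) and Timm8a1 by -0.40 (SE 0.12, adjusted p = 0.0281), while Timm8a2 was at -0.04 (adjusted p = 0.89). The TIM22 translocase, the destination of these chaperones, had no call: Timm22 was at -0.31 (SE 0.11, adjusted p = 0.0734) with overlapping groups, and Timm29 at -0.06 (adjusted p = 0.767).

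Timm10b, the small TIM that docks its partners onto TIM22, ran the other way. Its main probe set read 9.87, 10.06 and 9.85 in Rptor-/- and 8.94, 9.11, 9.14 and 9.32 in WT ISP cells, 0.80 higher (SE 0.14, limma adjusted p = 4.23e-04). Its other probe set was 0.99 to 1.38 above the array median on ISP arrays, where the main probe set was 5.14 to 6.21 above it, and gave -0.09 (adjusted p = 0.595). The rise therefore rests on 1 of 2 probe sets. The probe sets of Timm8a1 agreed in direction in ISP cells but not in size. Its probe set 3 read 7.67, 7.80 and 7.42 in Rptor-/- and 8.80, 8.76, 8.81 and 8.94 in WT, a difference of -1.19 (adjusted p = 1.4e-07), and probe set 2 gave -0.46 (adjusted p = 0.0223). The call of the main probe set was lost without Rptor-/- replicate 3 (-0.27, adjusted p = 0.23), WT replicate 3 (0.0601) or WT replicate 4 (0.0604).

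**Figure D2:**
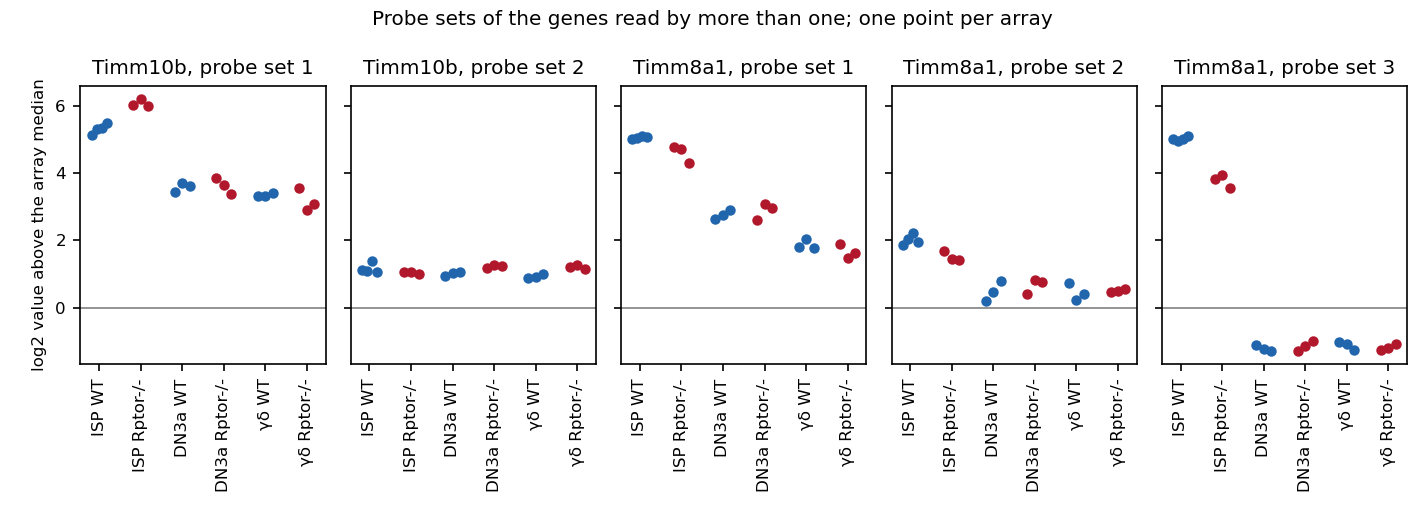
Log2 value above the array median (y axis) of each probe set of Timm10b and Timm8a1, 1 point per array, WT in blue and Rptor-/- in red; levels are comparable within ISP arrays or within DN3a and γδ arrays, not between them. Only probe set 1 of Timm10b is higher in Rptor-/- ISP cells, while all 3 of Timm8a1 are lower there, and probe set 3 of Timm8a1 is below the array median in DN3a and γδ T cells.

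Both members of the disulfide relay fell in ISP cells. Chchd4, the oxidoreductase that folds incoming cysteine-rich proteins, read 6.67, 6.40 and 6.06 in Rptor-/- and 7.21, 6.88, 7.13 and 6.85 in WT. Its Rptor-/- arrays were the most spread of the 33 members, yet all lay below WT, with a difference of -0.64 (SE 0.12, limma adjusted p = 7.65e-04; 0.0649 in the fit of ISP arrays alone). Gfer, the oxidase that reoxidises Chchd4, read 5.82, 6.18 and 5.85 against 6.40, 6.71, 6.76 and 6.58. Here too the groups were apart, and the fall of 0.66 (SE 0.11, adjusted p = 3.3e-04) left 63.1% of the WT signal.

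**Figure D3:**
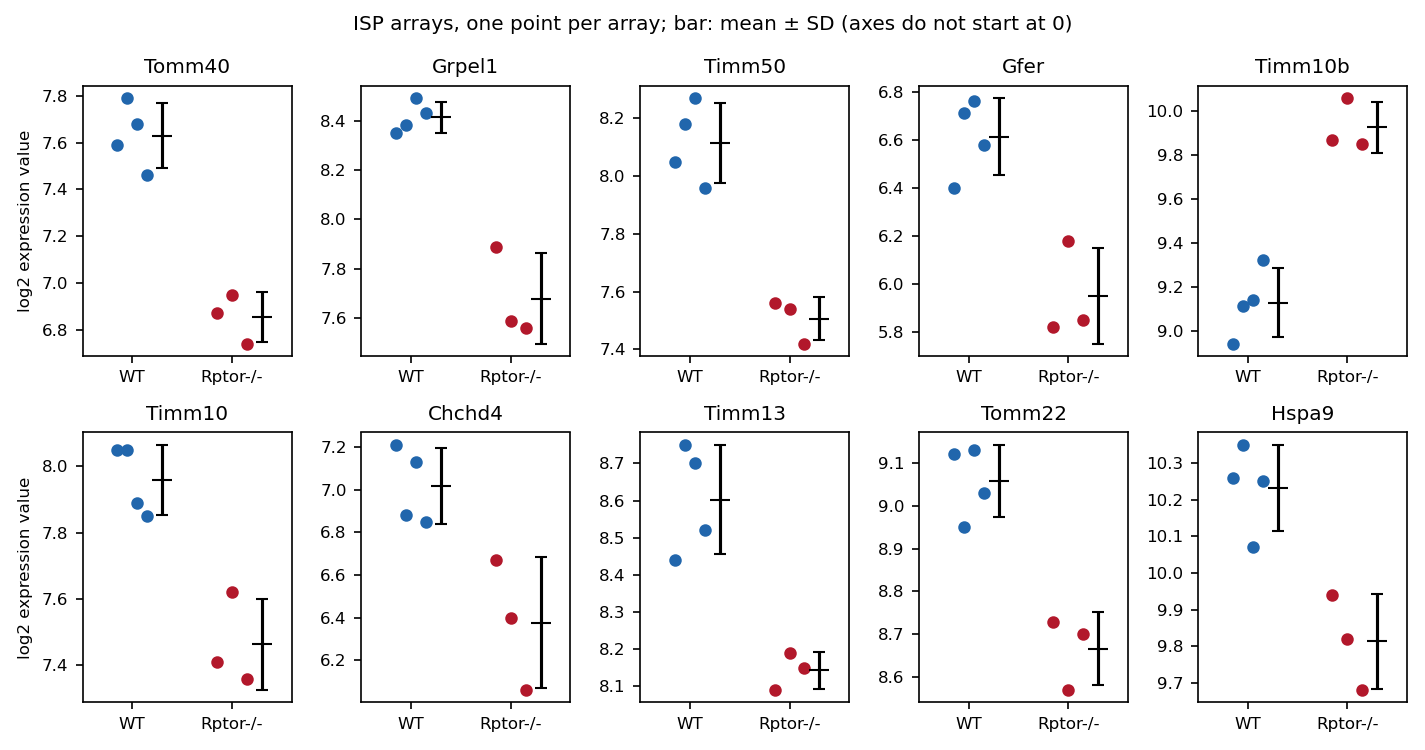
Log2 expression value (y axis, not starting at 0, its own range per gene) of the 10 import genes with the smallest adjusted p in ISP cells, 1 point per array with the mean ± SD beside it, 4 WT and 3 Rptor-/- arrays. In each panel the groups do not overlap: 9 genes are lower in Rptor-/- and Timm10b is higher.

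The calls did not hang on single arrays for most members. With each of the 7 ISP arrays left out in turn, 16 to 18 members were called, and 15 of the 18 were called every time, the exceptions being Timm17b, Timm8a1 and Tomm34. In the fit of ISP arrays alone Chchd4, Timm17b, Timm8a1, Timm8b, Tomm34, Tomm7 and Tomm70a lost their calls. Markers of other stages moved in the same arrays. Of 7 DN3a markers 5 were higher and 1 lower in Rptor-/- ISP cells, where 12.4% of all genes were called. Their mean level was 7.68 to 7.70 against 6.97 to 7.18 in WT, with none below the array median throughout. Of 6 markers of mature αβ T cells 2 were lower, with a mean level of 4.61 to 4.80 against 5.02 to 5.29, and 3 and 2 of them were below the array median on every Rptor-/- and WT array. The part of these shifts in the fall of the import genes was not tested. Stage markers moved in the other populations too. In Rptor-/- DN3a cells 2 of 7 DN3a markers were higher and 0 lower, where 0.983% of all genes were called. In Rptor-/- γδ T cells 3 of 5 ISP markers were lower and 0 higher, where 3.05% of all genes were called.

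In DN3a cells, the double-negative stage before the β-selection checkpoint, no import gene was called, where 0.983% of all genes were, and 0 of 33 had an unadjusted limma p under 0.05, which 10.6% of all genes had. The differences ran from -0.14 (Timm8a2) to 0.16 (Timm17b and Dnlz) with SEs of 0.06 to 0.15, and their median was 0.035 against 0.0112 over all genes. Tomm40 read 9.51, 9.57 and 9.60 in Rptor-/- and 9.47, 9.61 and 9.74 in WT DN3a cells. Those values interleave, with a difference of -0.04 (SE 0.09, adjusted p = 0.936). Grpel1 read 9.13, 9.44 and 9.32 against 9.11, 9.28 and 9.44, and Timm10 read 9.49, 9.71 and 9.56 against 9.51, 9.51 and 9.74. Groups were apart for 4 members, 3 higher and 1 lower, where 17.1% of all genes had groups apart.

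The γδ T cells gave no call either, where 3.05% of all genes were called. At an unadjusted limma p under 0.05 there were 2 higher and 2 lower members, where 16.3% of all genes passed. Timm10 read 9.37, 9.17 and 9.32 in Rptor-/- and 9.05, 9.07 and 8.96 in WT γδ T cells, 0.26 higher (SE 0.09, adjusted p = 0.164) with groups apart. Timm21 was at 0.22 (SE 0.09, adjusted p = 0.247). Tomm20l, at -0.27 (SE 0.08, adjusted p = 0.091), and Timm8a2, at -0.31 (SE 0.10, adjusted p = 0.098), were the lowest. Chchd4 read 6.92, 6.92 and 7.03 against 6.71, 6.62 and 6.81, which is 0.24 above WT (SE 0.13, adjusted p = 0.348). Tomm40 read 9.19, 9.24 and 9.16 against 9.20, 9.28 and 9.15, a difference of -0.01 (SE 0.09). Of the 33 members 12 had groups apart, 6 in each direction, where 21.0% of all genes did, and the median difference was 0.013 against 0.0042 over all genes.

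Whether the genotype effects differ between populations was tested as interactions. Each effect was taken within its own array set, since the ISP arrays and the others stand apart in overall level and were treated as separate normalizations. All ISP arrays form 1 set, so in both comparisons with ISP cells a difference between populations cannot be told apart from one between array sets. The effect in ISP minus that in DN3a passed for 12 members, 11 lower and 1 higher, where 7.01% of all genes passed, 4.12% lower and 2.89% higher. Tomm40 differed by -0.74 (SE 0.12, limma adjusted p = 0.0011), Grpel1 by -0.76 (SE 0.15, adjusted p = 0.00412), Chchd4 by -0.76 (SE 0.17, adjusted p = 0.0101) and Timm50 by -0.59 (SE 0.14, adjusted p = 0.012). Against γδ T cells 11 members passed, 10 lower and 1 higher, where 5.78% of all genes did, 3.63% lower and 2.16% higher. There Tomm40 differed by -0.77 (SE 0.12, adjusted p = 8.15e-04), Timm10 by -0.76 (SE 0.13, adjusted p = 0.00147) and Chchd4 by -0.89 (SE 0.17, adjusted p = 0.00386). Both comparisons use the same ISP arrays. With each array left out the first count ran from 7 (without DN3a WT replicate 1 or 2) to 13, and the second from 6 (without γδ Rptor-/- replicate 2 or 3, or γδ WT replicate 1) to 11. The second was 7 without ISP Rptor-/- replicate 3 or ISP WT replicate 2. Chchd4, Gfer, Timm9 and Tomm40 passed in both comparisons with any array left out, although Timm9 missed the threshold in both with the replicate number in the fit (adjusted p = 0.0666 and 0.0531). Between γδ and DN3a cells 0 of 33 effects differed (limma; 1 at an unadjusted p under 0.05), where 0.600% of all genes did (9.30% unadjusted).

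The WT cells of DN3a and γδ type lie in 1 array set, so the import genes can be compared between these stages. Of 33 members 10 were lower and 1 higher in γδ T cells, where 25.1% of all genes were called, 12.3% lower and 12.7% higher. Groups were apart for 20 members, against 38.9% of all genes. Hspa9 read 9.47, 9.57 and 9.84 in WT γδ T cells and 10.55, 10.66 and 10.62 in WT DN3a cells. The groups were far apart, and the fall of 0.98 (SE 0.10, limma adjusted p = 1.03e-07) left 50.5% of the DN3a signal. Timm9 read 7.96, 7.59 and 7.58 against 8.45, 8.47 and 8.45, a difference of -0.75 (SE 0.10, adjusted p = 4.82e-06), and its partner Timm10 read 9.05, 9.07 and 8.96 against 9.51, 9.51 and 9.74, a difference of -0.56 (SE 0.09, adjusted p = 1.18e-04). Chchd4 read 6.71, 6.62 and 6.81 against 7.30, 7.39 and 7.49, a difference of -0.68 (SE 0.13, adjusted p = 2.88e-04). In all of these the γδ arrays lay below the DN3a arrays. Timm21 differed by -0.56 (adjusted p = 1.12e-04), Tomm70a by -0.54 (adjusted p = 4.45e-05) and Tomm40 by -0.40 (adjusted p = 0.00198). Timm8a1 differed by -0.92 (adjusted p = 1.07e-05) on its main probe set, while its other probe sets gave -0.06 and 0.07.

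The relay genes went opposite ways between these WT populations. Gfer read 6.71 on all 3 WT γδ arrays and 6.18, 6.35 and 6.58 in WT DN3a cells, 0.34 higher in γδ T cells (SE 0.12, limma adjusted p = 0.0395). That call was lost when any of 5 of the 6 arrays was left out, WT DN3a replicate 3 being the exception. Pam16, at -0.30 (adjusted p = 0.0107), lost its call without WT DN3a replicate 2, and Pmpca, at -0.18 (adjusted p = 0.0446), without WT DN3a replicate 2 or 3 or any WT γδ array. Grpel1, which fell strongly in Rptor-/- ISP cells, was at 0.20 here (adjusted p = 0.228), with overlapping groups. Over the 33 members the ISP genotype effect and this WT difference, which share no arrays, were related with Pearson's r = 0.08 and Spearman's rho = 0.07 as a description. The members lower in both numbered 7, of 17 lower in ISP cells and 10 lower in WT γδ T cells, where 1.94% of all genes were lower in both. They include Timm8a1, whose WT difference was seen on its main probe set only. In each comparison alone more members were lower than genes at large, genes of low signal included. The shares were 51.5% against 6.57% in ISP cells and 30.3% against 12.3% in WT γδ T cells. The 1.94% is therefore no measure of a relation between the 2 falls.

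**Figure D4:**
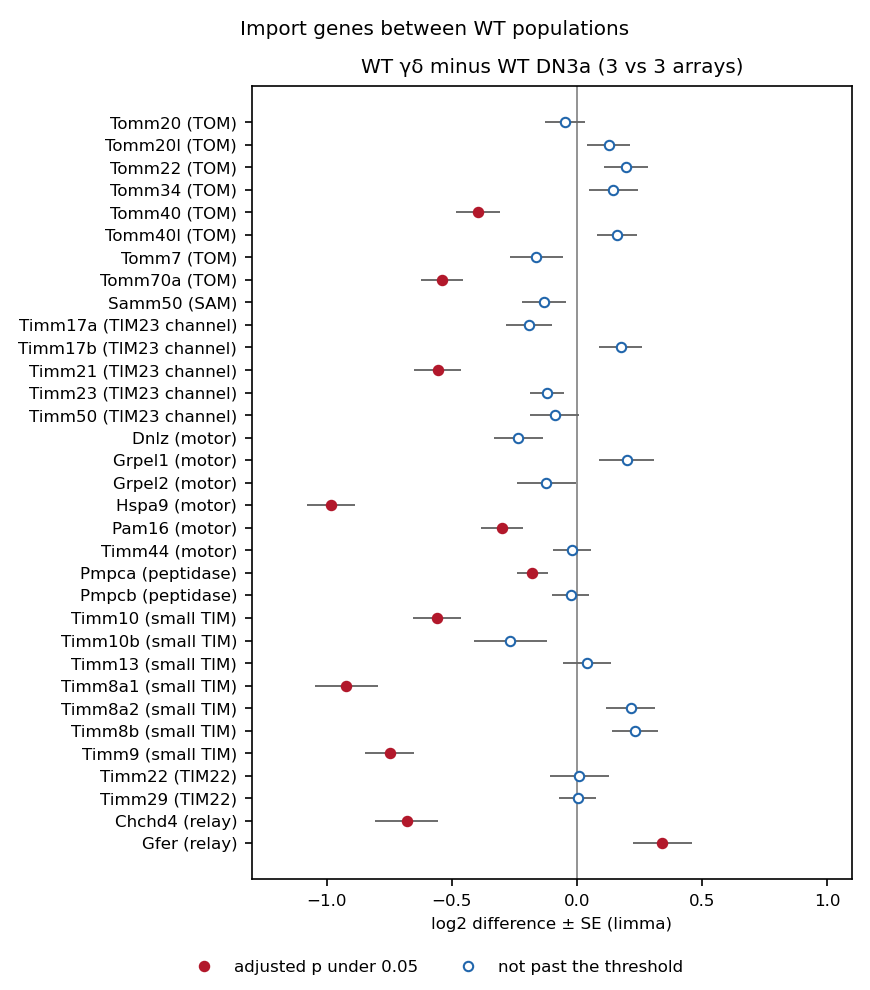
Log2 difference, WT γδ T cells minus WT DN3a cells, of each of the 33 import genes (x axis; points with limma's SE; filled points passed an adjusted p of 0.05; roles in brackets). Hspa9 at -0.98, Timm8a1 at -0.92 and Timm9 at -0.75 lie farthest to the left, and Gfer at 0.34 is the one filled point to the right.

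Genes around the import machinery were taken from 7 lists with 96 measured genes. In ISP cells 32 were lower and 2 higher in Rptor-/-, in DN3a cells 0 were called, and in γδ T cells 4 were higher and 0 lower, against 12.4%, 0.983% and 3.05% of all genes called. The ISP count over all genes was 18 without Rptor-/- replicate 3 and 17 in the fit of ISP arrays alone. Of 15 other import factors 5 fell, among them Dnajc15, a J-protein of the TIM23 motor, at -2.03 (limma adjusted p = 6.19e-09) and Mtch2, an outer membrane insertase, at -0.87 (adjusted p = 3.6e-06). Of 18 twin-CX9C proteins, the class the relay folds, 7 fell, with Chchd10 at -0.95 (adjusted p = 2.63e-05) and the cytochrome oxidase subunit Cox6b1 at -0.55 (adjusted p = 4.66e-04). The matrix chaperones and proteases had 5 of 17 lower, with Phb2 at -0.50 (adjusted p = 7.58e-05) and the chaperonin pair Hspd1 and Hspe1 at -0.43 and -0.44.

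Among 11 genes of cristae and mitochondrial dynamics 3 fell, with Immt, the core of the cristae junction complex, at -0.46 (limma adjusted p = 2.31e-04), and 2 rose, the fission genes Mff at 0.27 and Dnm1l at 0.24. Neither rise held without Rptor-/- replicate 3 (adjusted p = 0.107 and 0.115). Of 17 biogenesis regulators 4 fell, led by Ssbp1, which coats mitochondrial DNA, at -0.44 (adjusted p = 3.22e-04). Of 9 mitophagy and stress genes 4 fell, with the cytosolic chaperone Hsp90aa1, which hands precursors to the Tomm70a receptor, at -0.46 and its co-chaperone Stip1 at -0.45. Of 9 channels and carriers 4 fell, with Slc25a39 at -0.58 and Slc25a5, an ADP/ATP carrier and a client of the small TIM route, at -0.45. The 4 genes higher in Rptor-/- γδ T cells were Chchd10 at 0.62 (adjusted p = 0.0131), Pprc1 at 0.43, Myc at 0.42 and Afg3l2 at 0.29. All 4 lost their calls without WT replicate 3, and the other 3 besides Chchd10 also without WT replicate 1 and in the fit of γδ arrays alone. Without Rptor-/- replicate 1 Pprc1 was lost, without Rptor-/- replicate 2 Myc and Afg3l2, without Rptor-/- replicate 3 Pprc1 and Myc, and without WT replicate 2 Afg3l2.

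**Figure D5:**
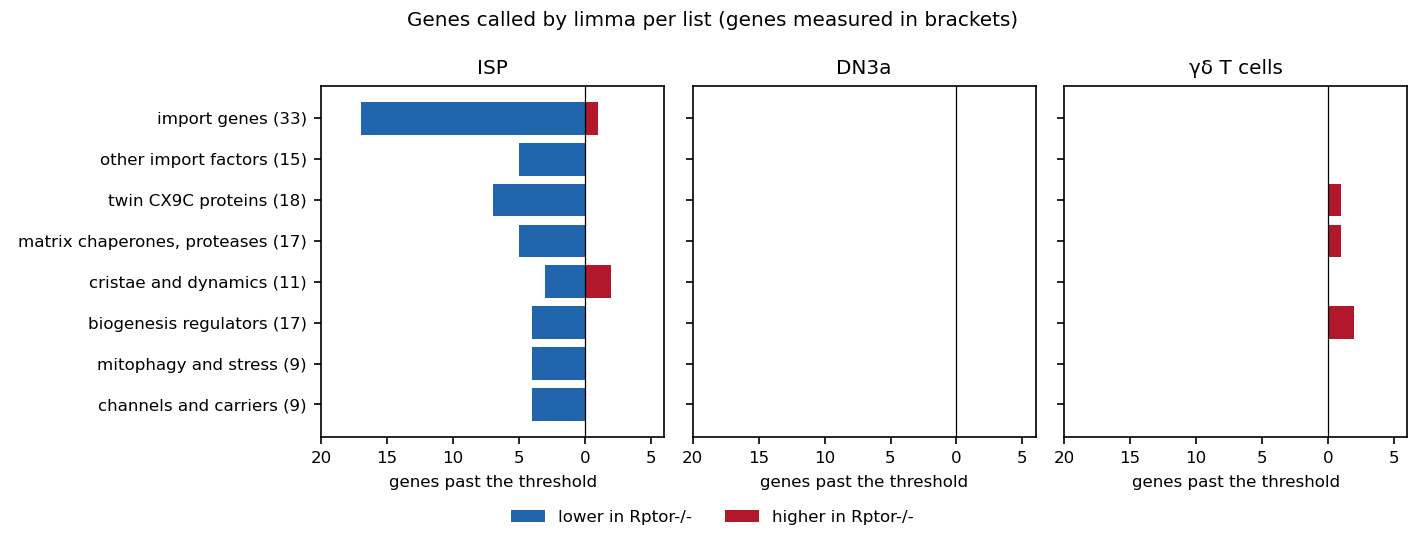
Number of genes called by limma (x axis, lower in Rptor-/- to the left in blue, higher to the right in red) in the import genes and 7 neighbouring lists, for ISP, DN3a and γδ T cells, with the genes measured in brackets. The ISP panel shows 17 import genes lower and 1 higher, the DN3a panel is empty, and the γδ panel holds 4 higher genes, none of them an import gene.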

How the data were processed

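RNA of sorted thymocytes (12 ng per array, per the labels) was measured on 19 one-colour arrays. The deposited log2 values per probe set were made with RMA in Partek 6.6, per the submitters' processing notes, and the sources used here do not say which arrays were normalized in one run. The 23521 probe sets with a single gene symbol, of 41345, were kept; 1814 shared by several genes and 16010 unnamed here were left out. Of these, 23328 were matched to current symbols by Entrez ID, and 22180 genes resulted. The members and lists were chosen with earlier results of these data known, and every member was named. Neighbouring lists were described by up to 4 called genes each.

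Groups were compared with limma 3.58.1 in R 4.3.3 (lmFit, eBayes; 6 group means over 19 arrays; Benjamini-Hochberg over all genes; two-sided; threshold 0.05). Every adjusted p is limma's. There was no filter on low signal. Rptor was also tested by an exact permutation test. On simulated data of 22180 genes, changes of 0.5 log2 were recovered in 72% (ISP), 62% (DN3a) and 67% (γδ) of changed genes. The simulation gave 100 genes per comparison a change of this size, with 1 spread per gene for all groups. In the real ISP comparison 2759 genes were called, so these rates need not hold for the arrays. The number of arrays limits precision. Alternatives were other normalizations, probe set rules, filters, fits and single arrays left out. Matplotlib 3.10.9 drew the plots.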

Additional observations from a re-analysis of the deposited data

Results flagged for a closer look

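In 5 of 34 groups of 4 arrays, all WT ISP, 1 array lay far from the other 3 relative to the spread of those 3. Chance does this in about 1 in 20 independent groups. All 34 were genes read on the same 4 arrays and are not independent, so their count cannot be set against that rate. Replicate 3 was high for Pam16 (9.02 against 8.67 to 8.69) and Timm17a (8.51 against 8.23 to 8.25) and low for Rptor (6.34 against 6.47 to 6.49). Replicate 4 was high for Timm21 (7.89 against 7.79) and low for Tomm20l (3.49 against 3.56 to 3.57).

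Genotype effects that differed by the interaction test were these, each effect taken within its own array set. Population and array set cannot be told apart in them. In ISP minus DN3a cells the differences of log2 effects were -0.74 for Tomm40, -0.76 for Grpel1, -0.76 for Chchd4, -0.71 for Gfer, -0.59 for Timm50, -0.54 for Timm9, -0.53 for Timm13, -0.46 for Timm17b, -0.50 for Timm10, -0.45 for Tomm22, -0.44 for Timm8b and 0.80 for Timm10b. In ISP minus γδ T cells they were -0.77 for Tomm40, -0.76 for Timm10, -0.89 for Chchd4, -0.58 for Timm9, -0.69 for Gfer, -0.51 for Tomm34, -0.56 for Grpel1, -0.48 for Timm13, -0.39 for Tomm70a, -0.40 for Timm17b and 0.99 for Timm10b. The values for Timm10b are those of its main probe set. With each array left out in turn, 6 of 12 calls against DN3a cells were always kept: Chchd4, Gfer, Grpel1, Timm50, Timm9 and Tomm40. Against γδ T cells 6 of 11 were: Chchd4, Gfer, Timm10, Timm10b, Timm9 and Tomm40.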

How the results depend on the processing

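The 0 calls among import genes in DN3a and γδ T cells held under every alternative run, and the fall in ISP cells kept its direction. With only the arrays of the populations compared, the spread came from fewer arrays and from those populations alone. In that fit 11 import genes and 17 neighbouring genes were called in ISP cells and 1 neighbouring gene in γδ T cells. With quantile normalization across all arrays the ISP median was -0.199, the γδ median -0.037, and 6 import genes passed each interaction of ISP with DN3a and with γδ T cells; with arrays centred on their medians the γδ median was 0.054. The causes were not tested.

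Leaving out single arrays gave ISP medians of -0.342 to -0.255, γδ medians of -0.024 to 0.022, interaction counts of 7 to 13 and 6 to 11, and neighbouring genes of 18 to 30 in ISP and 1 to 4 in γδ T cells.

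Rptor missed the threshold in ISP cells with their arrays alone (-0.24, adjusted p = 0.128) and with quantile normalization (-0.22, adjusted p = 0.0865), and in γδ T cells with their arrays alone (-0.30, adjusted p = 0.114) and with centred arrays (-0.26, adjusted p = 0.102). Without single arrays it ran from -0.32 to -0.18 in ISP and from -0.33 to -0.27 in γδ T cells. The other probe set of Timm10b reversed its ISP difference to -0.087 and its interactions to -0.28 (DN3a) and -0.34 (γδ), and probe set 3 of Timm8a1 reversed the WT γδ minus DN3a difference to 0.068.

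The labels do not say that equal replicate numbers mark shared samples, and deviations of same-numbered arrays correlated between -0.104 and 0.242. With the replicate number as a block, 17 import genes were called in ISP cells (Timm8a1 was lost, adjusted p = 0.0768) and 0 in DN3a and γδ T cells, 10 passed each ISP interaction, with Timm9 lost from both (0.0666 and 0.0531), and Rptor was at -0.23 (ISP, adjusted p = 0.147) and -0.30 (γδ, adjusted p = 0.117).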
